A study of Mus musculus with 48 samples.

Results

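The genes described here are 10 members of the interleukin-1 (IL-1), tumour necrosis factor (TNF) and NF-kB response, chosen by name: Il1a, Il1b, Il1rn, Tnf, Tlr2, Tlr4, Cd14, Nfkbia, Nfkbiz and Tnfaip3. The choice was made with earlier results of these data known. The members were matched by symbol to 10 of the 46983 gene identifiers counted, and all 10 had more than 10 counts in total and were tested among 19970 genes. The RNA came from the cortex of male C57Black/6 mice 3 months old, in which the middle cerebral artery was closed for good by coagulation (MCAO, a model of stroke). Sham animals had the same surgery without the coagulation, and MCAO and sham groups were taken at 3 h, 12 h, 24 h, day 3 and day 7. Control tissue was intact cortex of mice of the same age. There were 48 libraries in 11 groups: 4 control libraries, 4 sham libraries at each time, 5 MCAO libraries at each time except 24 h, and 4 MCAO libraries at 24 h. The tissue was the injured cortical region, which held affected and unaffected tissue together, so that the share of each in a library is not known. The labels give replicate letters without tying them to animals.

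IL-1α and IL-1β, made from Il1a and Il1b, and TNF are cytokines that activated myeloid cells release within hours of tissue damage. Il1rn encodes the IL-1 receptor antagonist, which binds the same receptor without starting a signal. Toll-like receptors such as those made from Tlr2 and Tlr4 sense microbial products and molecules from dying cells, and Cd14 is a co-receptor that hands ligands to them. All these receptors lead to NF-kB, a dimeric transcription factor that is held in the cytoplasm by IkB proteins until the IKK kinase complex marks these for destruction. Nfkbia (IkBα), Nfkbiz (IkBζ) and Tnfaip3 (A20) are themselves NF-kB targets; IkBα and A20 shut the signal off again, and IkBζ acts in the nucleus on a second set of targets. In the brain, microglia are the main resident source of these cytokines, and neutrophils and monocytes that enter after a stroke bring more.

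Il1a and Il1b lie next to each other on chromosome 2 (GRCm38, minus strand, chr2:129299610-129309972 and chr2:129364570-129371139), with Il1rn on the plus strand of the same chromosome at chr2:24336853-24351494. Tnf lies at chr17:35199381-35202007, Tlr2 at chr3:83836272-83841767, Tlr4 at chr4:66827584-66930284, Nfkbia at chr12:55489410-55492647, Nfkbiz at chr16:55811375-55838899 and Tnfaip3 at chr10:19000910-19015657. All are annotated as protein-coding genes.

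Promoter sequence was held for 7 of the members (RefSeq, GRCm38.p6), and a match to the 10-base NF-kB motif was looked for on both strands from 250 bases before to 50 bases after each start. Matches lay in the windows of 3 of these 7 genes, Tlr2, Nfkbia and Tnfaip3, against 9.55% of the 27025 genes with a window. Of the 32851 windows of all genes, 8.46% held a match and 1.22% held 2 or more. The 250 bases before the start are shown for these 3 genes and for Il1b, a member with no match, with the matched bases in capitals and all 4 on the minus strand. Nfkbia lies at chr12:55492648-55492897, Tlr2 at chr3:83841609-83841858, the first of 2 starts of Tnfaip3 at chr10:19015411-19015660 and Il1b at chr2:129371140-129371389.
Nfkbia: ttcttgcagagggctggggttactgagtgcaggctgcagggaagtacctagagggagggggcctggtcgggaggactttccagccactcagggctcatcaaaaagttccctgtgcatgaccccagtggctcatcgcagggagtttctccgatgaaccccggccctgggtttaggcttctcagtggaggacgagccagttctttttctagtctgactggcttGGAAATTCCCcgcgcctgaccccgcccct
Tlr2: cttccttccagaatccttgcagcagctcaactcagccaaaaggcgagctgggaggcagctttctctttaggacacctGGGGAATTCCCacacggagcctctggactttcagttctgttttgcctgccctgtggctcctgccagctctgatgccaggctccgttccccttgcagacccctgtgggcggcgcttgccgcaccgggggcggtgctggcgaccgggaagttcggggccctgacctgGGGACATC
Tnfaip3: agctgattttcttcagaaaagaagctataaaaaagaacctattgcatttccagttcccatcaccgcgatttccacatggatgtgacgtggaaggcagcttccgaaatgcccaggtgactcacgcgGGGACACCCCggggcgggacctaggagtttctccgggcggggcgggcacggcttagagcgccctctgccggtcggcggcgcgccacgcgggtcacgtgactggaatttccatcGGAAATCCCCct
Il1b: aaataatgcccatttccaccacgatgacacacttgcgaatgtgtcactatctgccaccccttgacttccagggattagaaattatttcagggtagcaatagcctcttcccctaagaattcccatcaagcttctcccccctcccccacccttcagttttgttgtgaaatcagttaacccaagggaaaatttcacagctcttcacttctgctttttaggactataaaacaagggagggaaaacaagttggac

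The match of Nfkbia begins 29 bases before its start. Tlr2 has 2 overlapping matches, beginning 173 and 172 bases before the start, and another that begins 8 bases before it and runs past it. Those of Tnfaip3 begin 125 and 12 bases before the start. None was found in the windows of Il1a, Il1b, Il1rn or Tnf, which says only that these letters are not in these windows. The AP-1 motif TGANTCA was present in 1 window each of Il1a, Il1rn and Tnfaip3, and in 7.81% of the windows of all genes.

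Libraries held 1522668 to 2826735 counts on genes (median 1935856), and levels are given in CPM, counts scaled to the size of each library. At this depth Il1a, Tnf, Tlr2, Tlr4 and Tnfaip3 were carried by few counts, and a library at 0 does not show that a gene was silent. Markers of neurons were present in every library, with a summed level of 4272 to 8647 CPM. Summed neutrophil markers were 0 to 15.7 CPM in the 24 control and sham libraries and 5.77 to 177 CPM in 22 MCAO libraries, but 1717 CPM in MCAO 12 h replicate E and 636 CPM in MCAO day 3 replicate C. Markers of monocytes and infiltrating macrophages summed to 18.3 to 42.6 CPM in control and sham libraries and to 24.1 to 541 CPM after MCAO. In MCAO 12 h replicate E and MCAO day 3 replicate C, S100a8 and S100a9 had the most counts of the neutrophil markers. Ly6g, a defining neutrophil marker, had 9 counts in all libraries together. These 2 libraries held 69.8% of all Il1b counts, 73.9% of all Il1rn counts and 49.5% of all Tnf counts, and the results were therefore also computed without them, a choice made after the values were seen. In RNA of whole tissue, fewer cells of a type and less RNA per cell cannot be told apart.

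After MCAO, transcripts of the cytokines and receptors, and of the NF-kB regulators Nfkbia and Nfkbiz, were higher than in sham animals when averaged over all times. Averaged over the 5 times, 9 of the 10 members were called higher and 0 lower by edgeR, where a gene was called at an adjusted p under 0.01 and a log2 fold change of more than 0.58 in either direction; 4.89% of all genes tested were called in this comparison. The log2 fold change was 4.50 ± 0.69 (SE) for Il1b, 4.07 ± 0.65 for Tlr2, 4.10 ± 0.77 for Tnf, 3.64 ± 0.45 for Cd14, 2.39 ± 0.63 for Il1a and 2.02 ± 0.49 for Tlr4. The regulators differed by less, with 1.22 ± 0.22 for Nfkbiz and 0.69 ± 0.14 for Nfkbia, and Tnfaip3 was not called at 0.89 ± 0.41 (edgeR adjusted p = 0.149). Il1rn was called too, but its fitted value rests on sham groups at 0 and is given as a bound from counts with that gene. Sham groups were also at 0 for Tnf at 12 h, 24 h and day 7, for Tlr2 at 24 h and day 7 and for Il1a at day 7. The averages of these genes therefore depend in part on the prior count, a small count added in the fit. From pooled counts of all times, MCAO over sham was 26.6-fold for Tnf, 21.1-fold for Tlr2 and 5.58-fold for Il1a. The average of the 5 times was added after the values were seen. Without the 2 neutrophil-rich libraries 7 members were called, and Il1a (1.99, edgeR adjusted p = 0.0262) and Nfkbia were not. Nfkbia fell below the fold minimum at 0.48, with an edgeR adjusted p of 0.000226. The calls of 3 genes were also lost in fits that left out 1 of the 44 MCAO and sham libraries: Il1a in 8 of them (2.16 to 2.32), Il1rn without MCAO 3 h replicate D (6.01) and Tlr4 without MCAO 12 h replicate C (1.79).

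**Figure D1:**
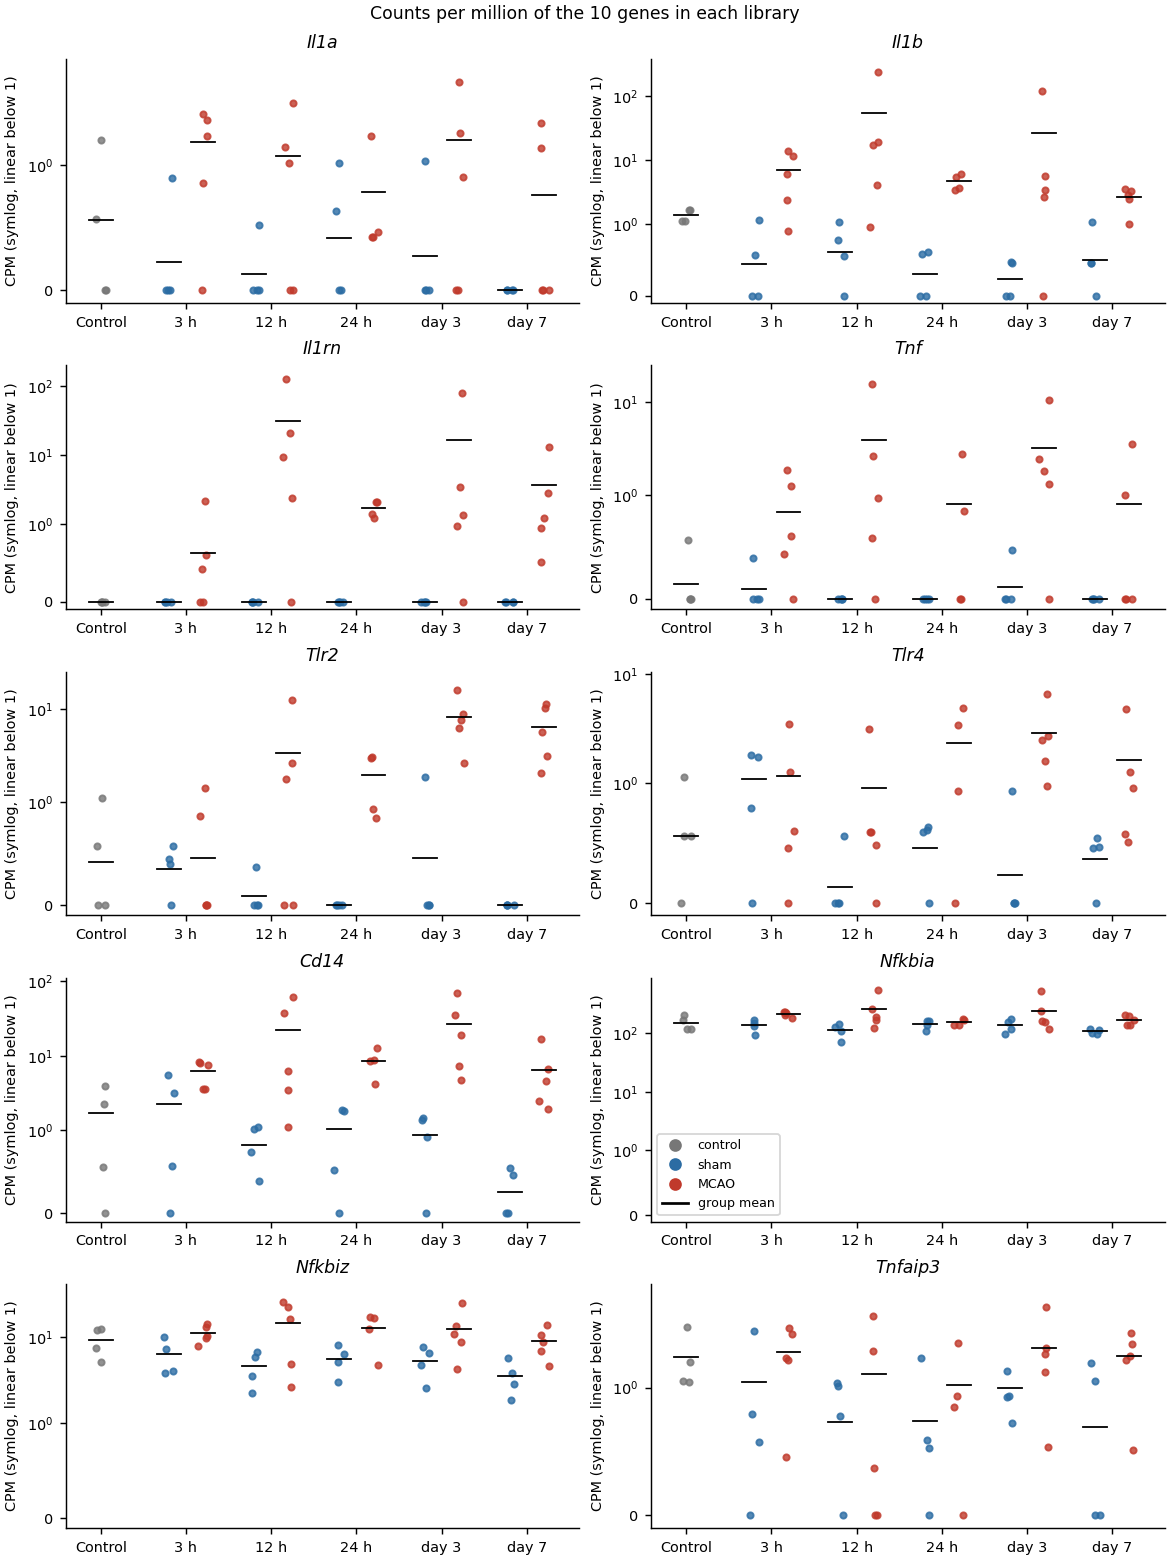
CPM of each of the 10 genes (y axis, linear below 1 and logarithmic above) in every library of the control, sham and MCAO groups (x axis, time after surgery), with 1 point per library and a black bar at the group mean. Il1b reaches 233 CPM in 1 MCAO library at 12 h and 118 CPM in 1 at day 3, Il1rn is at 0 in all control and sham libraries, and Nfkbia is present in all 48.

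Time by time, fewer members passed the test. At 3 h, 0 of 10 members were called against sham by edgeR (background 0.11% of genes), with 2 at an unadjusted p under 0.05 and 0 called by DESeq2. At 12 h, 2 were called, Il1b and Cd14 (background 0.411%). At 24 h, 0 were called (background 0.0901%), with 6 at an unadjusted p under 0.05 and 0 by DESeq2. DESeq2 gave 3 members no adjusted p at 24 h and so could not call them. At day 3 the count was 3, Il1b, Cd14 and Tlr2 (background 4.02%), and at day 7 it was 1, Tlr2 (background 3.5%). All the called members were higher after MCAO, and the fitted log2 fold change was above 0 for all 10 at each time.

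The median log2 fold change of the members was 1.13 at 3 h, 3.52 at 12 h, 2.57 at 24 h, 3.72 at day 3 and 3.00 at day 7, against medians between 0 and 0.06 for all genes tested. Where all sham libraries of a time were at 0, the fitted value depends on the prior count. With these genes set to the lower bound given by 3 counts over the sham group, the medians were 0.82, 3.07, 1.59, 3.72 and 1.68.

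Every MCAO library stood above every sham library for 1 member at 3 h (Nfkbia), 0 at 12 h, 4 at 24 h (Il1b, Il1rn, Tlr2 and Cd14), 3 at day 3 (Tlr2, Tlr4 and Cd14) and 4 at day 7 (Il1rn, Tlr2, Cd14 and Nfkbia). The share of all genes tested with this separation was 2.26%, 2.03%, 3.76%, 4.33% and 5.38% at these times. At 24 h the groups of 4 members were thus fully apart although 0 passed the test.

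**Figure D2:**
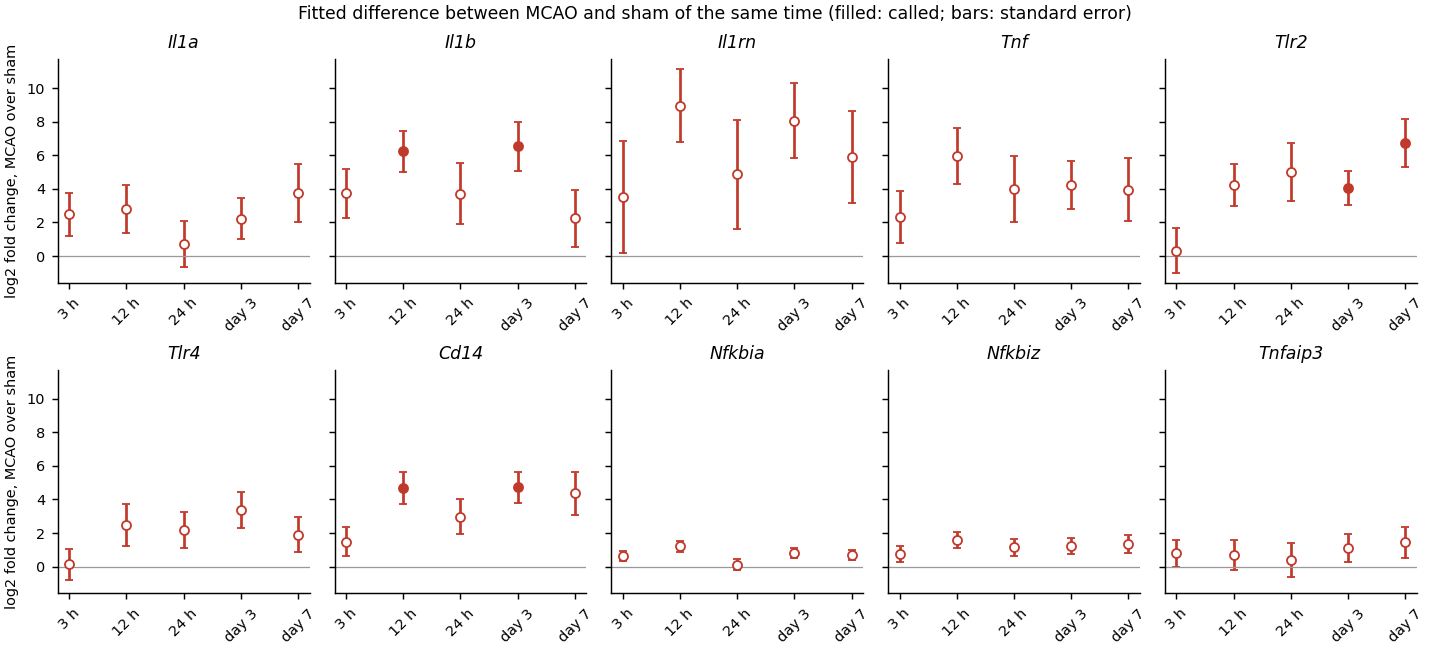
Fitted log2 fold change of MCAO over sham (y axis) at each time after surgery (x axis) for the 10 genes, with standard errors and filled points for called genes. Il1b and Cd14 are called at 12 h and day 3 and Tlr2 at day 3 and day 7. The values of Il1rn rest on sham groups at 0 and are no bound. The same holds for Tnf at 12 h, 24 h and day 7, Tlr2 at 24 h and day 7 and Il1a at day 7.

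Il1b, the main secreted IL-1 ligand, was the member with the widest range. Sham libraries held 0 to 3 counts of it, and the 4 control libraries 1.67, 1.12, 1.69 and 1.14 CPM. At 3 h the MCAO libraries were at 6.03, 2.36, 11.7, 13.8 and 0.911 CPM, with sham at 1.19, 0.576, 0 and 0 CPM. All but 1 of these MCAO libraries were above every sham library. At 12 h the MCAO values were 4.08, 0.971, 17.2, 18.8 and 233 CPM and the sham values 0.558, 0, 1.11 and 0.779 CPM. The groups overlapped in 1 MCAO library and 1 other was far above the rest. The log2 fold change was 6.23 ± 1.24 (SE; edgeR adjusted p = 0.00348). Without the highest library, replicate E, it was 3.80 and not called, and leaving out any 1 of the 4 sham libraries also ended the call.

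At 24 h, Il1b was at 5.52, 3.74, 3.39 and 6.11 CPM after MCAO and at 0.592, 0, 0.61 and 0 CPM in sham. These groups were apart and the MCAO libraries close together. At day 3 the MCAO libraries were at 0, 2.71, 118, 3.42 and 5.73 CPM and sham at 0, 0.462, 0 and 0.468 CPM, so that 1 library held 237 counts and another none. The log2 fold change was 6.54 ± 1.46 (edgeR adjusted p = 0.00197), 3.47 without replicate C, and 6.11 and 6.23 without sham replicates A and C, and each of these 3 omissions ended the call. At day 7 the MCAO libraries were at 2.88, 1.02, 3.57, 3.36 and 2.5 CPM against 0, 0.467, 1.09 and 0.456 CPM in sham (log2 fold change 2.26 ± 1.70, edgeR adjusted p = 0.444). The fit used the spread of all groups together, so this SE does not measure the spread at day 7 alone. Without the 2 neutrophil-rich libraries the day 7 difference was 2.25 ± 0.93 (edgeR adjusted p = 0.117). In that fit it was 3.73 ± 0.85 at 3 h and 3.72 ± 1.01 at 24 h (edgeR adjusted p = 0.0273 and 0.102), also not called.

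Il1a, the membrane-bound and intracellular IL-1 ligand, had 71 counts in all libraries together. It was seen in 16 of 24 MCAO libraries, with at most 11 counts, and in 5 of 20 sham libraries, with at most 3. MCAO libraries ran from 0 to 2.83 CPM at 3 h and from 0 to 5.49 CPM at day 3, against 0 to 0.896 and 0 to 1.09 CPM in sham, and the libraries overlapped at every time. It was not called at any single time.

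Il1rn, the antagonist, had 0 counts in all 24 control and sham libraries and 490 counts in the MCAO libraries. Over all times its pooled level after MCAO was 10.2 CPM, at least 142-fold higher than a floor of 3 counts over the 20 sham libraries, at least 84.7-fold without MCAO 12 h replicate E and at least 40.0-fold without both neutrophil-rich libraries. At 3 h the MCAO libraries held 1, 0, 1, 5 and 0 counts. At 12 h they held 0, 5, 40, 16 and 207 counts, a pooled level at least 80.0-fold above the floor of that sham group, and at least 21.9-fold without replicate E. At 24 h they held 5, 3, 5 and 2 counts (at least 4.08-fold).

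At day 3 the MCAO libraries held 0, 3, 155, 2 and 8 counts of Il1rn (at least 51.3-fold, and at least 4.91-fold without replicate C) and at day 7 they held 5, 1, 22, 2 and 2 counts. It was thus seen in 3 of 5 libraries at 3 h and in all libraries at 24 h and day 7. At no single time was it called by edgeR, with an adjusted p of 0.03 at 12 h and 0.019 at day 3 in edgeR, while DESeq2 called it at both. It was called over the 5 times (edgeR adjusted p = 0.000958).

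The balance of antagonist and ligands was described by the share of Il1rn among the counts of Il1a, Il1b and Il1rn. In MCAO libraries the mean share was 4.56% ± 5.46 (SD, n = 5) at 3 h, 34.2% ± 21.1 (n = 5) at 12 h, 25.1% ± 9.18 (n = 4) at 24 h, 29.8% ± 10.9 (n = 4) at day 3 and 40.4% ± 19.7 (n = 5) at day 7, where 1 library of day 3 had no count of the 3 genes. The share rose by 29.6 percentage points from 3 h to 12 h, which did not pass correction (two-sided exact permutation test, p = 0.0476, 0.19 after adjustment over 4 pairs of times). The later steps of -9.10, 4.71 and 10.6 points had exact permutation p-values of 0.468, 0.429 and 0.405. With MCAO 12 h replicate A left out, the first step was 38.2 points and passed.

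In sham libraries the share was 0 of 27 counts, which allows up to 11.1%, and in control 0 of 14, which allows up to 21.4%. Pooled by group, it was 6.93% at 3 h (95% exact binomial interval 2.83 to 13.8) and 35.8% at 12 h (32.4 to 39.4). Such limits cover counting error only, since reads without molecular identifiers are not independent molecules.

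**Figure D3:**
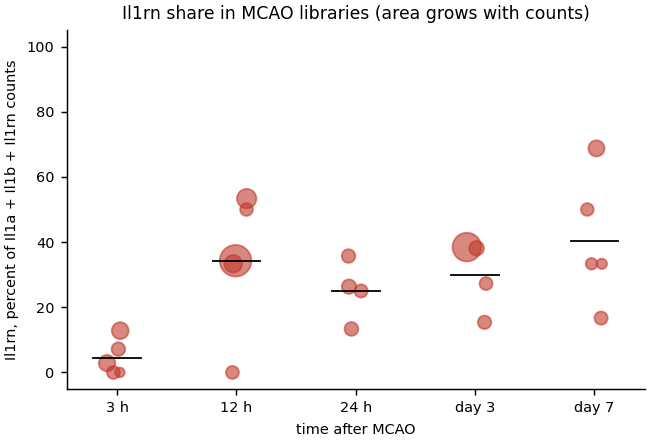
Il1rn as a percent of Il1a, Il1b and Il1rn counts (y axis) in each MCAO library by time (x axis), with larger points for libraries with more counts and a black bar at the mean. The mean is 4.56% at 3 h and lies between 25.1% and 40.4% at the later times, with wide overlap among those.

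Tnf had 95 counts in all, 92 of them in MCAO libraries and 2 in sham libraries. At 12 h the MCAO libraries held 0, 2, 5, 1 and 26 counts and sham none, which is at least 10.1-fold above the floor and at least 2.87-fold without replicate E. At day 3 they held 0, 4, 21, 5 and 3 counts against 0, 0, 0 and 1 in sham. The highest library at both times was again the neutrophil-rich one. The log2 fold change was 5.97 ± 1.66 at 12 h and 4.25 ± 1.43 at day 3, and neither was called (edgeR adjusted p = 0.0561 and 0.0572). The 12 h value rests on a sham group at 0 and depends on the prior count. At 3 h, 24 h and day 7 the MCAO libraries held at most 6 counts of Tnf.

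Among the receptors, Tlr2 was called at day 3 and day 7. In sham groups it was at 0 in 15 of 20 libraries. At 3 h the MCAO libraries were at 0, 1.42, 0, 0.862 and 0 CPM and sham at 0.395, 0.576, 0.448 and 0 CPM, with wide overlap. At 12 h they were at 0, 0, 2.61, 1.76 and 12.5 CPM against 0, 0, 0.369 and 0 CPM. Here 2 MCAO libraries had no count and replicate E had the most.

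At 24 h Tlr2 was at 2.97, 0.935, 0.847 and 3.06 CPM after MCAO and at 0 in all sham libraries, a pooled level at least 4.35-fold above the floor. At day 3 it was at 2.67, 7.68, 16, 6.35 and 8.81 CPM against 0, 1.85, 0 and 0 CPM, and at day 7 at 10.4, 2.04, 11.3, 5.76 and 3.13 CPM against 0 in every sham library, at least 18.2-fold above the floor. From 24 h on, every MCAO library was above every sham library. The log2 fold change at day 3 was 4.06 ± 0.99 (edgeR adjusted p = 0.00572) and the call at day 7 had an edgeR adjusted p of 0.00217.

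The day 3 call of Tlr2 was lost without MCAO replicate C (3.68) or E (4.03), without sham replicate A (3.61), C (3.70) or D (3.69), and with ERCC spike-in scaling (3.76), DESeq2 (4.22) or a fit of the compared groups alone (4.06). The day 7 call was lost without sham replicate D, and held in the other 8 fits that left out 1 library. Without the 2 neutrophil-rich libraries the day 3 difference was 3.67 and not called, and the day 7 call held. Summed microglia markers were also higher, at 549 to 1655 CPM at day 3 and 659 to 2188 CPM at day 7 after MCAO. They were at 258 to 493 CPM over all control and sham libraries, and all 9 were present in each of the 48 libraries. Replicate C had the highest Tlr2 and the highest microglia sum at both times. At day 7, replicate A had the lowest microglia sum (659 CPM) but more Tlr2 than replicates B, D and E. MCAO 12 h replicate E held 12.5 CPM of Tlr2 with a microglia sum of 336 CPM, within the sham range. Monocyte and macrophage markers were higher too, at 42.7 to 534 CPM at day 3 and 41.0 to 541 CPM at day 7. Of these, Fn1 had the most counts over all libraries (5462) and was seen in all 24 control and sham libraries. Ccr2 was seen in 12 and Ly6c2 in 2 of those 24. The part of either cell type in the result was not tested.

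Cd14 was seen in all 24 MCAO libraries. At 3 h they were at 3.62, 7.56, 7.97, 8.19 and 3.64 CPM against 0, 0.576, 3.14 and 5.45 CPM in sham, where 3 of 5 were above every sham library. At 12 h they were at 1.11, 6.31, 37.6, 3.53 and 61.9 CPM against 1.12, 1.04, 0.739 and 0.39 CPM, a log2 fold change of 4.68 ± 0.95 (edgeR adjusted p = 0.00475). The lowest MCAO library lay just under the highest sham library. Without MCAO replicate C the difference was 4.39, without replicate E it was 3.82, and without any 1 of the 4 sham libraries it was 4.44 to 4.83, and the call was lost each time.

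At 24 h Cd14 was at 4.25, 8.41, 8.9 and 12.8 CPM against 0, 1.9, 1.83 and 0.524 CPM. At day 3 it was at 4.8, 7.23, 69.4, 19 and 34.8 CPM against 1.45, 0.923, 1.4 and 0 CPM, and at day 7 at 4.61, 6.62, 16.7, 1.92 and 2.5 CPM against 0, 0.467, 0.545 and 0 CPM. The groups were apart at all 3 times. The day 3 difference of 4.72 ± 0.91 (edgeR adjusted p = 0.00033) was called in all 9 fits that left out 1 library and without the 2 neutrophil-rich libraries. The day 7 difference of 4.36 ± 1.28 was not called (edgeR adjusted p = 0.0221), nor was it in any fit that left out 1 library. It was called by DESeq2 (4.68), with no filter on low counts (4.34) and at an adjusted p under 0.05. Without the 2 neutrophil-rich libraries it was called too (4.35, edgeR adjusted p = 0.0092).

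Tlr4, the receptor for endotoxin that works with Cd14, had 107 counts in all. Its MCAO means ran from 0.96 ± 1.24 CPM at 12 h to 2.88 ± 2.20 CPM at day 3 (SD, n = 5). At day 3 the MCAO libraries held 3, 6, 5, 2 and 15 counts and the sham libraries 0, 0, 2 and 0, with a log2 fold change of 3.39 ± 1.06 that was not called (edgeR adjusted p = 0.0356). At 3 h both groups were alike in range, with 0 to 3.45 CPM after MCAO and 0 to 1.79 CPM in sham.

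**Figure D4:**
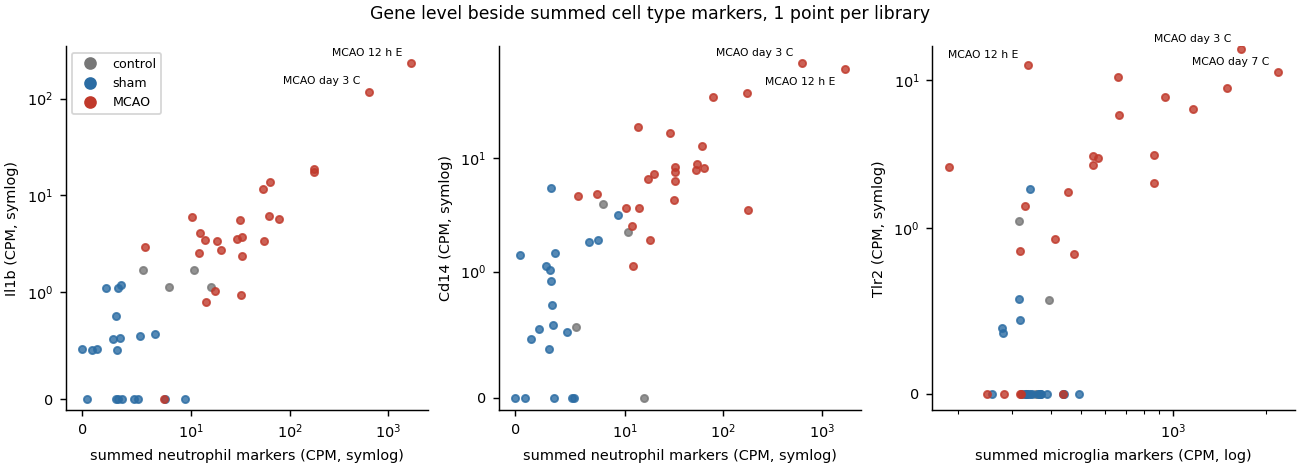
Level of Il1b and Cd14 beside summed neutrophil markers and of Tlr2 beside summed microglia markers (all axes in CPM, logarithmic or linear near 0 as labelled), with 1 point per library in grey (control), blue (sham) and red (MCAO). The libraries MCAO 12 h E and MCAO day 3 C lie highest for the neutrophil markers, at 1717 and 636 CPM, and hold 233 and 118 CPM of Il1b.

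At 12 h and day 3, Il1b, Il1rn, Tnf, Tlr2, Cd14 and Nfkbia were highest in MCAO 12 h replicate E and day 3 replicate C. These libraries also had the highest neutrophil markers, as the plot of gene level beside markers shows for Il1b and Cd14. Other markers were high in the same libraries: those of monocytes and macrophages at 135 CPM in 12 h replicate E and 534 CPM in day 3 replicate C, those of microglia at 1655 CPM in day 3 replicate C and those of erythrocytes at 799 CPM in 12 h replicate E. In control and sham libraries these sums reached at most 42.6 CPM for monocytes and macrophages, 493 CPM for microglia and 150.4 CPM for erythrocytes. The erythrocyte sum of 12 h replicate E was the median of the MCAO 12 h group, which ran from 69.7 to 1416 CPM. The share of alignments on no gene was highest of all libraries in 12 h replicate E, at 30.6%. Of the 10 neutrophil markers, 9 had a count in MCAO 12 h replicate E and 10 in day 3 replicate C, and 1 of 10, Ly6g, was at 0 in all control and sham libraries. In replicates E and C, S100a8 had 1274 and 657 of its 2906 counts, and Cxcr2 had 25 and 25 of 94. Other markers had few of theirs there: Camp 0 and 3 of 39, Ngp 4 and 1 of 28, and Ltf 1 and 2 of 20. Without these 2 libraries the log2 fold change of Il1b was 3.83 ± 0.81 at 12 h and 3.44 ± 1.02 at day 3, that of Tnf 4.12 ± 1.58 and 3.08 ± 1.37, and that of Nfkbia 0.71 ± 0.21 and 0.29 ± 0.21, none of them called. The fitted value of Il1rn went from 8.96 to 7.04 at 12 h and from 8.07 to 4.64 at day 3, and that of Cd14 was 3.82 at 12 h and stayed called at day 3. The part of any of these cell types in the values was not tested.

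Among the NF-kB regulators, Nfkbia was by far the best covered, with 16521 counts and at least 126 in each library. At 3 h the MCAO libraries were at 233, 222, 235, 184 and 205 CPM and the sham libraries at 152, 132, 168 and 95.4 CPM. These groups did not overlap, and the log2 fold change was 0.65 ± 0.30 (edgeR adjusted p = 0.551). At 12 h the values were 122, 188, 264, 171 and 560 CPM against 70.3, 128, 110 and 143 CPM, a log2 fold change of 1.20 ± 0.31 (edgeR adjusted p = 0.0311). It was called at 12 h without MCAO replicate A (1.36), with no filter on low counts (1.18) and at an adjusted p under 0.05. Without MCAO replicate E the difference was 0.71, and it was not called.

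At 24 h Nfkbia was at 140, 168, 139 and 178 CPM after MCAO and at 139, 110, 163 and 165 CPM in sham, a log2 fold change of 0.11 ± 0.32. The libraries overlapped and this was its smallest difference of the 5 times. At day 3 the MCAO libraries were at 119, 164, 541, 154 and 238 CPM against 98.3, 157, 119 and 176 CPM, and at day 7 at 142, 167, 209, 201 and 140 CPM against 113, 103, 118 and 98.1 CPM. At day 7 the groups were apart by a log2 fold change of 0.67 ± 0.30, which was not called (edgeR adjusted p = 0.166). The control libraries, at 121 to 203 CPM, overlapped the MCAO libraries of 3 h and of day 7. Sham at day 7 had the lowest mean of the 11 groups (108 CPM). The pooled MCAO level at day 7 was 1.74-fold that of sham and 1.18-fold that of control. The difference at day 3 was 0.83 ± 0.30 with all libraries and 0.30 without replicate C.

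Nfkbiz was present in all 48 libraries. Its means after MCAO were 10.9 ± 2.58, 14.3 ± 10.3, 12.6 ± 5.74, 12.3 ± 7.57 and 8.88 ± 3.47 CPM from 3 h to day 7 (SD, n = 5, and 4 at 24 h), against 6.22 ± 2.88, 4.53 ± 2.02, 5.56 ± 2.09, 5.29 ± 2.17 and 3.54 ± 1.66 CPM in sham (n = 4). The log2 fold changes lay between 0.78 at 3 h and 1.59 at 12 h, with overlap of libraries at every time and no call. In the control libraries it was at 5.02, 7.31, 12.4 and 12 CPM, within the range of the MCAO libraries.

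Tnfaip3 had 131 counts in all, at most 10 in a library, and was at 0 in 3 of 24 MCAO and 5 of 20 sham libraries. Its log2 fold change ran from 0.40 ± 1.03 at 24 h to 1.45 ± 0.93 at day 7 and was not called at any time. At 12 h and 24 h the sign of its difference turned, to -0.31 and -0.30, when a single library was left out (MCAO 12 h replicate E and MCAO 24 h replicate D).

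Against the 4 control libraries, which were the same in each of these comparisons, 0, 1, 0, 2 and 0 members were called at 3 h, 12 h, 24 h, day 3 and day 7 (background 0.13%, 0.851%, 0.275%, 3.09% and 1.5%). These were Il1b at 12 h (5.20 ± 1.15, edgeR adjusted p = 0.00667), and Cd14 (3.95 ± 0.87, edgeR adjusted p = 0.0021) and Tlr2 (4.11 ± 1.04, edgeR adjusted p = 0.00959) at day 3. At the 3 times with 0 calls, 0, 1 and 2 members had an unadjusted p under 0.05 and DESeq2 called 0. DESeq2 gave no adjusted p to 4, 4 and 1 members at these times. Leaving out any 1 control library ended the calls of Il1b (5.11 to 5.30) and Tlr2 (3.74 to 5.06), and that of Cd14 ended without control replicate A (3.67) or B (3.55). Without MCAO 12 h replicate E, Il1b differed from control by 2.78, and without MCAO day 3 replicate C, Cd14 and Tlr2 differed by 3.25 and 3.74, none of them called. The median log2 fold change of the members against control was 1.20, 1.86, 1.78, 3.10 and 1.14 from 3 h to day 7. Each was smaller than the median against sham except at 3 h.

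Between sham and control, 0 members were called by edgeR or DESeq2 at all 5 times (background 0%, 0.0351%, 0.01%, 0% and 0%). At an unadjusted p under 0.05 there was 1 member at day 7 and none earlier. DESeq2 gave no adjusted p to 5 members at 12 h and 9 at 24 h. The fitted values still lay mostly on 1 side. Of the 9 members with counts, 7, 9, 9, 8 and 9 were lower in sham than in control from 3 h to day 7. The median log2 fold change of the members was -0.19, -1.12, -0.70, -0.76 and -1.40. The same 4 control libraries served each time. Between neighbouring times after MCAO, 0 members were called at each of the 4 steps (background 0.376%, 0.015%, 0.486% and 0.0351%), with 4, 3, 5 and 2 at an unadjusted p under 0.05 and 0 by DESeq2. DESeq2 gave no adjusted p to 5, 0, 1 and 5 members at these steps. For a change of the MCAO minus sham difference between neighbouring times, 0 members were called (background 0.01%, 0.01%, 0.01% and 0%). At an unadjusted p under 0.05 there were 1, 1, 0 and 0, and DESeq2 called 0. DESeq2 gave no adjusted p to 5 members at the last of these steps. Il1rn was at 0 in all sham groups, as were Il1a, Tnf and Tlr2 in some. A sham level of 0 leaves this contrast undetermined, so it could not decide there. The order of times seen in the means is therefore a description.

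Groups ranked by mean CPM placed MCAO 12 h first for Il1b (54.8 ± 99.8 CPM), Il1rn (31.2 ± 52.1 CPM), Tnf (3.93 ± 6.53 CPM), Nfkbia (261 ± 175 CPM) and Nfkbiz. MCAO day 3 was first for Il1a, Tlr2 (8.30 ± 4.88 CPM), Tlr4, Cd14 (27.1 ± 26.5 CPM) and Tnfaip3 (2.21 ± 1.68 CPM), each with n = 5 and SD. The SD of the first group exceeded its distance to the next group for all 10 genes, so that these neighbours were not separated by their spread.

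Over the 11 group means of log2(CPM + 1), the genes most like Il1b among 13903 compared were S100a8 (Pearson r = 0.972), Rock1 (0.97) and Cxcl2 (0.966). Those most like Tlr2 were Nfe2l2 (0.99), Tnfrsf1b (0.985) and Irf5 (0.984), and those most like Nfkbia were Cebpb (0.939), Ccl3 (0.92) and Mcl1 (0.914). Among the members, the closest pair was Tnf and Cd14 (0.95) and the least alike were Il1rn and Tnfaip3 (0.289). These are descriptions over groups that share the same libraries and the same 2 neutrophil-rich ones.

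Around the members, 68 other genes of the pathway were listed, with earlier results of these data known, and 65 tested. Of these, 0 were called against sham at 3 h, 1 at 12 h, 1 at 24 h, 13 at day 3 and 5 at day 7, all higher after MCAO, where the shares of all genes called were 0.11%, 0.411%, 0.0901%, 4.02% and 3.5%. At 3 h, 8 of 65 had an unadjusted p under 0.05, against 8.45% of all genes, and DESeq2 called 0. Their median log2 fold change was 0.32, 0.50, 0.41, 1.17 and 0.52 at these times. Averaged over the 5 times, 21 of 65 were called, all higher (background 4.89%). The day 3 count was 5 without MCAO day 3 replicate C, 7 without MCAO replicate E or sham replicate C, and 8 without sham replicate A or B. The day 7 count was 0 without MCAO day 7 replicate C, 1 without sham replicate B or D, and 3 without sham replicate A or C. That day 7 library had the highest summed microglia markers (2188 CPM) and the lowest neuron markers (4272 CPM) of all.

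Of the 12 TNF receptor and adaptor genes, Tnfrsf1a, the receptor that carries a death domain, was called at 12 h, 24 h and day 3. Its mean was 35.0 ± 10.9 CPM at 12 h, 44.2 ± 9.70 CPM at 24 h and 43.1 ± 25.9 CPM at day 3 after MCAO (SD, n = 5, and 4 at 24 h). In sham it was 7.82 ± 4.23 and 10.1 ± 2.52 CPM at 12 h and 24 h (n = 4) and 7.39 to 12.3 CPM at day 3. The log2 fold change was 2.11 ± 0.39 at 12 h and 2.12 ± 0.41 at 24 h. At 12 h and 24 h the lowest MCAO libraries, at 25.3 and 30.5 CPM, were above every sham library. The second receptor, Tnfrsf1b, was called at day 3 (3.32 ± 0.70) and day 7 (3.12 ± 0.76), as was Adam17, the protease that releases TNF (1.28 ± 0.28 and 1.21 ± 0.29). Tnfaip2 (4.92 ± 0.95) and Tnfaip8 were called at day 3. The 24 h call of Tnfrsf1a ended when any 1 of 7 of the 8 libraries was left out, and the 12 h call without MCAO replicate E or sham replicate A, B or D.

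Of the 14 IL-1 family receptors, relatives and adaptors tested, 1 was called at a single time: Myd88, the adaptor shared by IL-1 and most Toll-like receptors, at day 3 (1.85 ± 0.44, edgeR adjusted p = 0.00388). Il1r1, the signalling receptor, differed by 1.51 ± 0.62 at day 3 and 1.82 ± 0.70 at day 7 without a call. The decoy receptor Il1r2 differed by 4.72 ± 1.33 at 12 h (edgeR adjusted p = 0.0565), where the MCAO libraries ran from 0 to 16.7 CPM. Both receptors were called over the average of the 5 times.

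Of the 13 other Toll-like receptors and partners, Cd180 and Tlr13 were called at day 3 and day 7, Tlr7 at day 3 and Tlr1 at day 7. Cd180, a receptor-like partner on myeloid cells and B cells, was at 21.8 ± 13.8 CPM at day 3 after MCAO against 0.901 ± 1.01 CPM in sham, a log2 fold change of 4.54 ± 0.79. For Tlr13, which senses bacterial ribosomal RNA, the difference was 3.57 ± 0.83 at day 3 and 4.08 ± 0.93 at day 7. Tlr1, which pairs with Tlr2, was at 0 in all sham libraries of day 7 and had 21 counts in the MCAO libraries.

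Of the 13 NF-kB subunit and IKK complex genes, 2 were called at a single time, both at day 3: Nfkb2 (3.29 ± 0.83) and Rela, the main activating subunit (1.01 ± 0.23). Nfkb1 was not called at any time, with differences of 0.03 to 0.97. Of the 13 other IkB proteins and negative regulators, Bcl3, a nuclear IkB protein, and Nfkbie, which encodes IkBε, were called at day 3. Bcl3 was at 14.9 ± 11.9 CPM after MCAO and 0.181 ± 0.363 CPM in sham, a log2 fold change of 5.77 ± 0.94. Nfkbie had 21 counts after MCAO and 0 in sham of that day, while the other sham groups held 5 to 9 counts. Its mean of 1.99 ± 1.31 CPM (SD, n = 5) at day 3 after MCAO lay near the control mean of 1.55 ± 1.41 CPM (n = 4).

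**Figure D5:**
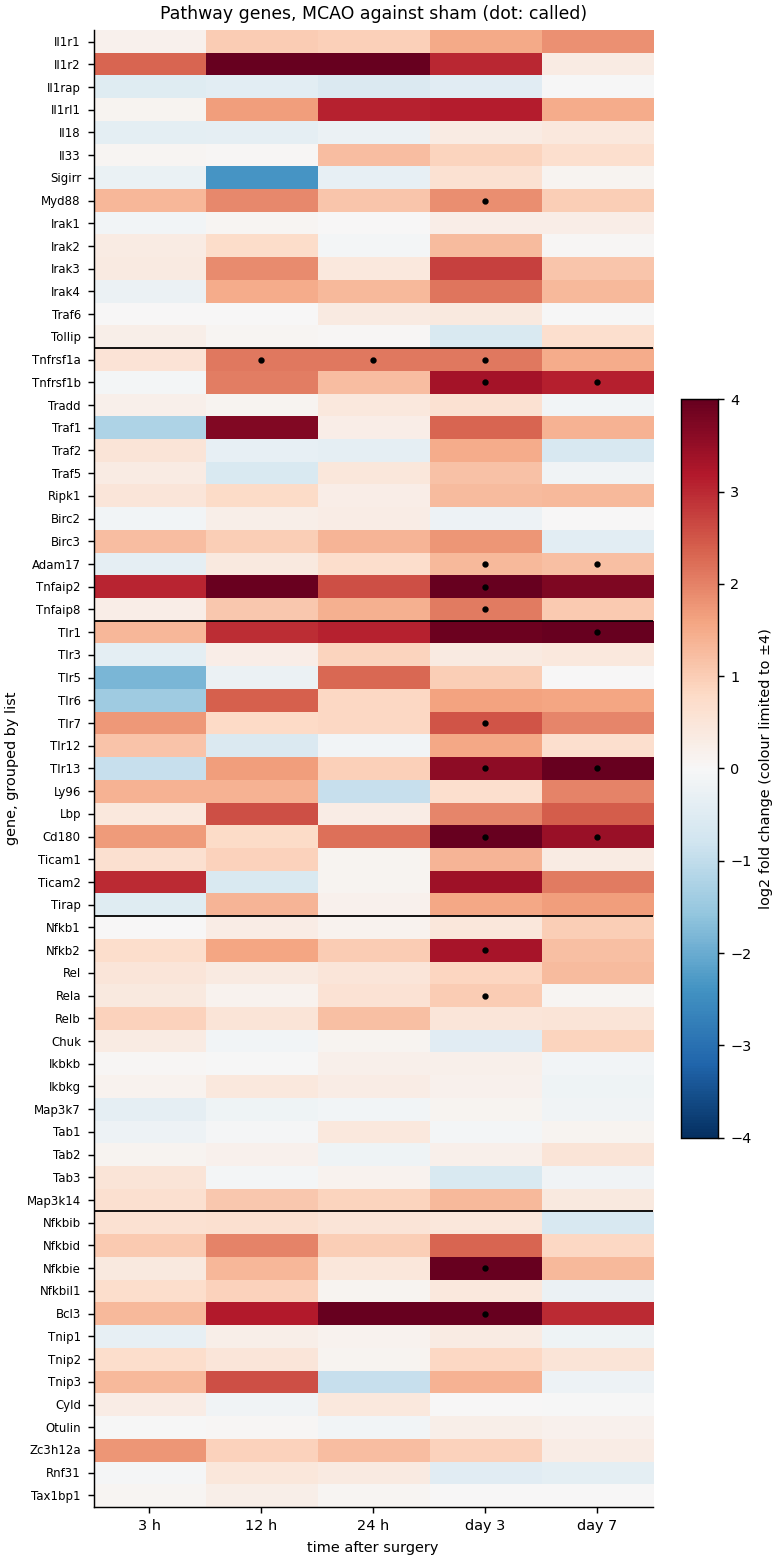
Fitted log2 fold change of MCAO over sham (colour, limited to 4 in either direction) for the 65 other pathway genes (rows, grouped by list and divided by lines) at each time (columns), with a dot where a gene was called. The 20 dots are all on higher values, and 13 of them stand at day 3.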

How the data were processed

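Poly(A) RNA of 48 mouse cortex libraries was sequenced by a 3′ tag method (QuantSeq 3′ FWD), so that levels are compared between libraries and not between genes. Per the study's methods, the authors trimmed reads with Trimmomatic, removed ribosomal reads with SortMeRNA, aligned with STAR 2.5.2b to GRCm38 with ERCC spike-ins, and assigned reads to Gencode genes with htseq-count (union mode); the deposited files hold raw counts per gene. The strand setting of the counting is not given in the sources used here, so overlapping and antisense genes may share reads. A deposited matrix of normalized values was not used.

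Groups were taken from the labels. The 19970 genes whose counts over all libraries summed to above 10 entered edgeR 4.0.16 (quasi-likelihood, TMM scaling, R 4.3.3) in 1 fit over all 11 groups, with Benjamini-Hochberg adjustment over all genes tested. Called genes had an adjusted p below 0.01 together with a log2 fold change beyond 0.58 in size. Standard errors (SE) were taken as the size of the log2 fold change over the square root of the F statistic, and are approximate. The estimated biological variation was 24.9%. Il1rn shares were compared by two-sided exact permutation tests with scipy 1.17.1, where the smallest p possible was 0.00794, or 0.0286 for 4 against 4 libraries. Fold bounds used a floor of 3 counts over the reference group. No 2 libraries were identical.

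The alternatives were DESeq2 1.42.0, its size factors, ERCC scaling, other filters, an adjusted p under 0.05 with no fold minimum, a fit of the compared groups alone, a block on replicate letters and each library left out. Genes to which DESeq2 gave no adjusted p were counted as not called. The average of the 5 times the omission of the 2 neutrophil-rich libraries and the fold bounds with a library left out were added after the data were seen. The members and gene lists were chosen with earlier results of these data known. Named genes are the 10 members, of the pathway Il1r1, Il1r2, Tnfrsf1a, Tnfrsf1b, Myd88, Nfkb1 and Rela and in each list the 2 called genes with the largest change at each time, and the 3 genes most like Il1b, Tlr2 and Nfkbia by Pearson correlation among genes with a mean of at least 2 CPM. Tlr7, Tnfaip8 and Adam17 at day 3 were named after their values were seen. Names and coordinates came from GENCODE vM21 and promoter sequences from RefSeq (GRCm38.p6), which matched 7 of the 10 members, with Tlr4, Nfkbiz and Cd14 not matched.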

Additional observations from a re-analysis of the deposited data

Results flagged for a closer look

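Within groups of 4 or 5 libraries, 98 gene and group pairs were looked at for a library far from the rest. By Dixon's 95% limit, 26 had such a highest or lowest library. The limit is made for normally distributed values, where it flags about 1 in 20. A group at 0 in all libraries but 1 passes it at any count, so these sparse counts cannot be set against that rate. In 12 of the 26 the library held at most 3 counts. MCAO 12 h replicate E was the highest for Il1b (233 CPM), Il1rn (123 CPM), Tnf (15.5 CPM) and Tlr2 (12.5 CPM). MCAO day 3 replicate C was the highest for Il1b (118 CPM), Il1rn (77.4 CPM), Tnf (10.5 CPM) and Nfkbia (541 CPM). MCAO day 7 replicate C was the highest for Il1rn (13.1 CPM), Tnf (3.57 CPM) and Tlr4 (4.76 CPM).

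Among the other MCAO libraries, Il1rn stood apart at 3 h in replicate D (2.15 CPM), Il1a at 24 h in replicate D (1.83 CPM) and Tlr4 at 12 h in replicate C (3.13 CPM). In sham libraries, Il1a stood apart at 3 h in replicate C (0.896 CPM), at 12 h in replicate B (0.521 CPM) and at day 3 in replicate A (1.09 CPM). Tlr2 did so at 12 h in replicate C (0.369 CPM) and at day 3 in replicate B (1.85 CPM). Tlr4 was high at 12 h in replicate A (0.558 CPM) and at day 3 in replicate C (0.934 CPM), and lowest, at 0 CPM, at 24 h in replicate D and at day 7 in replicate A. Tnf had a single count at 3 h in sham replicate A (0.395 CPM), at day 3 in sham replicate D (0.468 CPM) and in control replicate C (0.564 CPM).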

How the results depend on the processing

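No called value changed sign under the alternatives run, while uncalled member values did 199 times over 49 settings, most often without the 2 neutrophil-rich libraries (25) or MCAO day 3 replicate C (17). With an adjusted p under 0.05 and no fold minimum, members called against sham were 4 at 12 h, 5 at day 3 and 2 at day 7, against control 3 at 12 h, 4 at day 3 and 1 at day 7, and 1 between MCAO 12 h and 3 h, with 4, 2, 21 and 12 pathway genes at 12 h, 24 h, day 3 and day 7. With no filter on low counts, members were 4 at 12 h and 2 at day 7 against sham, 3 and 4 at 12 h and day 3 against control and 2 between MCAO 12 h and 3 h, with 4 and 2 pathway genes at 12 h and 24 h. ERCC scaling gave 7 pathway genes at day 3 and 1 member at day 3 against control. DESeq2 gave 3 and 2 pathway genes at 12 h and 24 h, 2 members at day 7 and 3 at 12 h against control. A fit of the compared groups alone gave 0 and 1 members at 12 h and day 3, the same numbers against control, and 0, 4 and 0 pathway genes at 12 h, day 3 and day 7. Without the 2 neutrophil-rich libraries, members were 0, 1 and 2 at 12 h, day 3 and day 7 and 0 at 12 h and day 3 against control, with 6 pathway genes at day 3.

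Libraries of the same letter were little alike on average (mean correlation of same-letter deviations 0.0166, from -0.355 to 0.486 over 226 pairs). Of 20 MCAO and sham pairs of the same time and letter, 5 were above 0.1. The mean thus does not settle whether some libraries were paired. With the letters as a replicate block, members called were 1 at 12 h, 0 at 12 h against control and 1 at day 3 against control, with 3 pathway genes at day 7. The calls of Il1b at 12 h (5.27) and Tlr2 at day 3 (3.79), of the same pair against control, and of Il1a over the average of the times (2.39) were lost.

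Leaving out 1 library gave 0 to 3 members at 12 h, 1 to 4 at day 3 and 0 to 1 at day 7, and against control 0 to 2 at 12 h and 0 to 3 at day 3. The 12 h count was 1 without MCAO replicate C and 0 without MCAO replicate E or any 1 sham library, the day 3 count 1 without MCAO replicate C or sham replicate A or C, and the day 7 count 0 without sham replicate D. Pathway counts ran from 0 to 1 at 12 h and at 24 h, 5 to 17 at day 3 and 0 to 7 at day 7, and over the average of the times from 17 to 23, with 8 to 9 members. The steps in Il1rn share ran from 24.8 to 38.2, -17.6 to -4.31, 0.794 to 9.52 and 3.53 to 16.6 points. The cause of these shifts was not tested. Genes with few counts are limited by depth.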
